A study of Rattus norvegicus with 9 samples.

Results

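Sod1, Sod2, Cat, Gpx1, Gpx4, Prdx1, Prdx2, Prdx3, Prdx4 and Prdx5 encode enzymes that remove superoxide and peroxides. The 10 genes were chosen by name from the 20645 genes in the table, not by a cutoff on expression, but earlier results of these data were known. INS-1E, a rat insulinoma line used as a model of the pancreatic beta cell, was cultured for 24 h with fatty acid-free BSA (the BSA group), with palmitic acid (PA) at 0.5 mM, or with the same dose of PA and cyanidin-3-O-glucoside (C3G), an anthocyanin from dark fruits, at 50 µM (the PA + C3G group). Each group had 3 libraries of polyadenylated RNA. The line is a tumor line grown in medium with 2-mercaptoethanol, a reducing agent, which all groups shared. The times come from the sample labels and the doses from the methods of the study. No group received C3G without PA, so the comparisons ask how PA altered these genes relative to BSA, how the addition of C3G altered them in the presence of PA, and how far the PA + C3G group stood from BSA.

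Superoxide is a radical made when oxygen takes up a single electron, for example in the mitochondrial respiratory chain. Superoxide dismutases turn it into hydrogen peroxide and oxygen, so they make a peroxide that other enzymes must clear. Catalase splits hydrogen peroxide in peroxisomes without a reducing partner, glutathione peroxidases reduce peroxides with glutathione, and peroxiredoxins reduce them through a reactive cysteine that is mostly recharged by thioredoxin. Pancreatic beta cells are known for low levels of catalase and glutathione peroxidase compared with other tissues.

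Libraries held between 45559993 and 66730721 estimated counts. Of the nonzero counts of 40 or less, 31.7% were multiples of 4. The origin of this was not tested, so the number of independent fragments is not known and may be lower than the totals. Counts divided by 4, with totals between 11389998 and 16682680, were run as an alternative. The 9 members that passed the expression filter (an average of 1 FPKM or more across all libraries) had between 1533 and 16859 counts in a library. FPKM is the number of fragments per unit of transcript length and of sequencing depth, and levels of different genes are compared here only on this scale. Of the 8 beta cell markers, all were in the table, and their summed FPKM ran from 48910 to 49627 in BSA, from 22086 to 22600 in PA and from 46476 to 52089 in PA + C3G. Most of this sum is insulin mRNA, and single markers differed between PA + C3G and BSA, with 3 higher (Ins1, Nkx6-1 and Chga) and 2 lower. The lower ones were Ins2 (log2 fold change −0.91, adjusted p = 6.86e-05) and Slc2a2 (−1.51, adjusted p = 7.41e-08). Of the markers of other cells, those of acinar cells, fibroblasts and leukocytes were low. The 2 acinar markers in the table reached at most 0.120 FPKM together, the 2 fibroblast markers 0.0963 and the 2 leukocyte markers 0.674, and none of the 2 endothelial markers was in the table. The duct markers Krt19 and Sox9 together lay at 2.52 to 2.72 FPKM in BSA, 4.64 to 6.04 in PA and 3.05 to 3.87 in PA + C3G, and Gcg, the only other islet marker in the table, at 8.28 to 31.2, 1.35 to 6.02 and 4.17 to 22.5. The part of these shifts in the results below was not tested. In bulk RNA, fewer cells of one kind and less RNA per cell cannot be told apart.

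The peroxiredoxin genes Prdx1 and Prdx4 were lower with PA than with BSA and higher again with PA + C3G than with PA. Their promoters are shown because both hold the core of the antioxidant response element, a motif bound by the factor NRF2 and its partners. The windows are from RefSeq on build GRCr8 and run from 250 bases before to 50 bases after the annotated start of transcription. Prdx1 is at chr5:135383656-135383955 and Prdx4 at chrX:43878483-43878782, both on the plus strand, and the capitals mark the match to TGACNNNGC, which lies on the reverse strand in both.

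Prdx1: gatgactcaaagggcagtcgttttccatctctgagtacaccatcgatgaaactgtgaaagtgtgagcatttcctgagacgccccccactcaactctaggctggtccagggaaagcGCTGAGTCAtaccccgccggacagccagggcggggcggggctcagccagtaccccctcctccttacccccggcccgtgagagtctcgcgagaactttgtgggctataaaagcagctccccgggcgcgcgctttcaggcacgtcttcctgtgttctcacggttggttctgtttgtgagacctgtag

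Prdx4: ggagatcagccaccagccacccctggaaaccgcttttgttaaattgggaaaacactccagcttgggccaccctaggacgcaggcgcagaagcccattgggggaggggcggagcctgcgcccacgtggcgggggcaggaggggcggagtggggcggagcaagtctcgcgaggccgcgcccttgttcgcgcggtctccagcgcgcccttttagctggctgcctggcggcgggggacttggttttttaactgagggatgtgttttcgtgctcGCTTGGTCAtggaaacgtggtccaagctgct

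The first base of the match lay 135 bases before the start in Prdx1 and 19 bases after it in Prdx4. All 10 members matched a RefSeq promoter, and TGACNNNGC on either strand was found in 4 of the 10. The other holders were Sod2 (first base 35 before the start) and Prdx5 (1 before). Neither shared the pattern of Prdx1 and Prdx4. Sod2 was higher with PA than with BSA (log2 fold change 0.14), and Prdx5 passed the test described below in no comparison. Over all RefSeq genes with a promoter window of this length, 13.12% of 27457 held it, and by window it was 4 of 12 for the members and 12.06% of 33469 overall. TGACGTG, a motif of the stress factors XBP1 and ATF6 (1.808% of all windows), was found in no member. Nor was TGTTTAC, a forkhead box O motif (3.78%). No other motif of endoplasmic reticulum stress was searched. A match describes letters in a window. Whether a factor binds there was not measured.

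The levels of the 10 genes differed widely. In BSA, Sod1 was the most abundant at 311 ± 7.89 FPKM (mean ± SD, n = 3), which was above 98.6% of the 12958 genes tested. Prdx1 followed at 252 ± 3.69, Prdx2 at 155 ± 13.5 and Prdx5 at 102 ± 2.44. Prdx4 stood at 57.8 ± 1.35, Sod2 at 50.2 ± 2.37, Gpx4 at 40.8 ± 1.20 and Prdx3 at 24.4 ± 0.304. Cat had 17.8 ± 0.879 FPKM, the lowest level of the 9 that passed the filter. No 2 neighbors in this order overlapped between their BSA libraries. In PA the libraries of Prdx1 and Prdx2 overlapped, Gpx4 stood above Sod2 and Prdx4, and Cat stood above Prdx3. In PA + C3G, Prdx4 and Gpx4 overlapped.

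**Figure D1:**
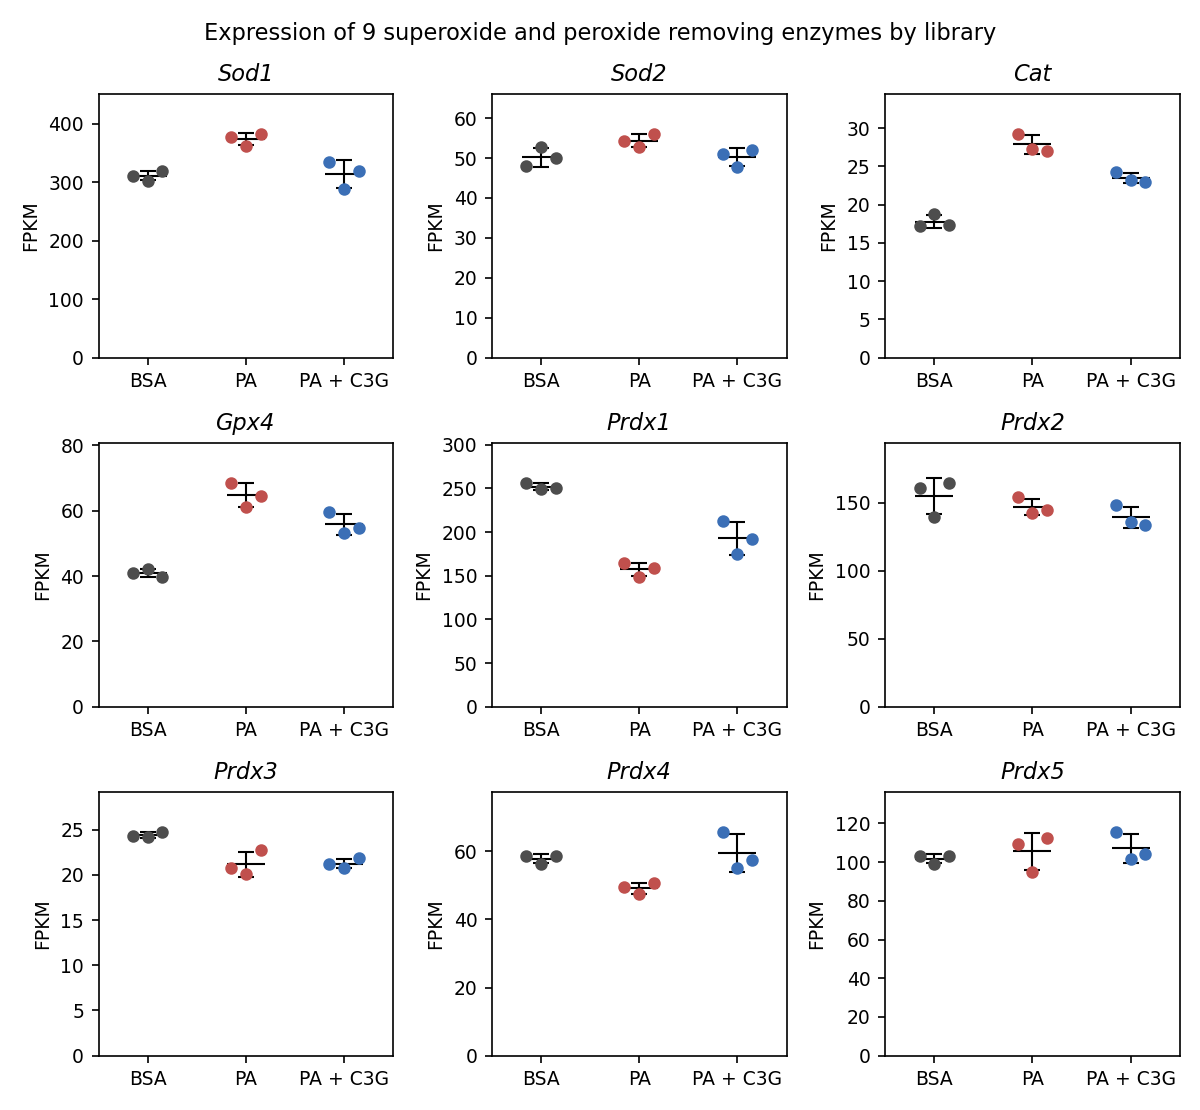
FPKM of the 9 members that passed the filter, 1 panel per gene with its own axis from 0. Points are the 3 libraries of each group and black bars the mean ± SD. Cat and Gpx4 sit above BSA in every PA and PA + C3G library, and Prdx1 sits below BSA in every one.

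At an adjusted p-value under 0.05 (edgeR's quasi-likelihood test with Benjamini-Hochberg adjustment over all 12958 genes), 7 of the 9 members differed between PA and BSA, against 51.0% of all genes tested. Sod1, Sod2, Cat and Gpx4 were higher, 4 of 9 against 25.8% of all genes. Prdx1, Prdx3 and Prdx4 were lower, 3 of 9 against 25.2%. The median log2 fold change was 0.08 over the 9 members and 0.00 over all genes tested, and the median absolute change was 0.21 and 0.26. Leaving out BSA replicate 3 reduced the 7 calls to 4, which were Sod1, Cat, Gpx4 and Prdx1.

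When C3G was added to PA, 4 of the 9 members differed, against 21.2% of all genes tested. Prdx1 and Prdx4 were higher, 2 of 9 against 11.1%. Sod1 and Cat were lower, 2 of 9 against 10.2%. The median log2 fold change was −0.04 over the members and −0.00 over all genes, and the median absolute change was 0.18 and 0.14. Leaving out PA replicate 1 left only Prdx1 and Prdx4 among the calls, 2 of 9. Between PA + C3G and BSA, 3 of the 9 differed, against 36.9%. Cat and Gpx4 were higher, 2 of 9 against 19.0%, and Prdx1 was lower, 1 of 9 against 17.9%. There the medians were 0.07 and 0.01, and the absolute medians 0.14 and 0.19. The comparisons of PA with BSA and of PA + C3G with PA share the PA libraries, so opposite directions in the pair are not independent observations.

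**Figure D2:**
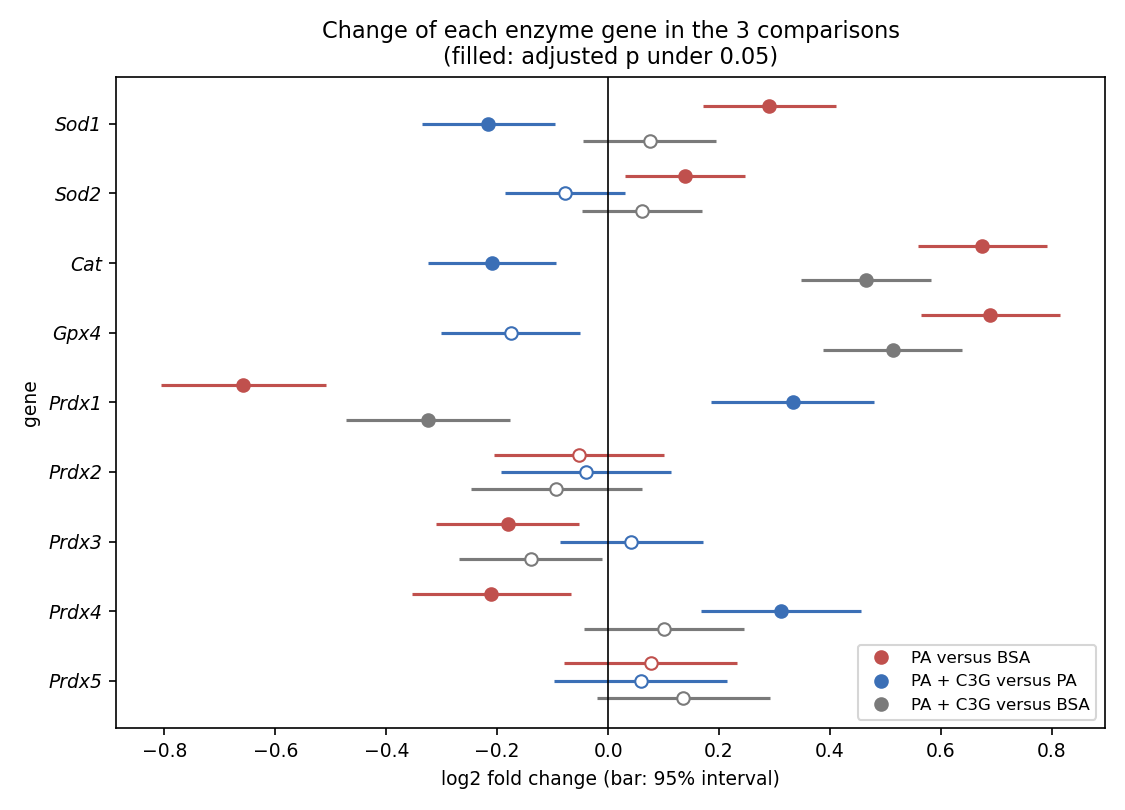
Log2 fold change of each member on the x axis, with its 95% interval, in the 3 comparisons. Filled points passed an adjusted p-value of 0.05. For PA versus BSA, Cat (0.67) and Gpx4 (0.69) lie farthest to the right and Prdx1 (−0.66) farthest to the left.

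The superoxide dismutases stand at the head of the pathway. Sod1 (ENSRNOG00000002115, chromosome 11, 30363280 to 30368862 in the authors' table, whose genome build is not given in the sources used here) encodes the copper and zinc enzyme of the cytosol. Its FPKM was 311, 303 and 318 in the BSA libraries, 377, 362 and 383 in PA, and 334, 288 and 319 in PA + C3G. All PA libraries lay above all others, whereas the PA + C3G libraries overlapped BSA. Sod1 rose 1.22-fold with PA (log2 fold change 0.29, SE 0.05, adjusted p = 0.00135, edgeR) and fell by 0.22 with the addition of C3G (SE 0.05, adjusted p = 0.0192). The latter call was lost without PA replicate 1 (adjusted p = 0.0512) or PA replicate 3 (adjusted p = 0.0689). Between PA + C3G and BSA the log2 fold change was 0.07 (95% interval −0.05 to 0.19, adjusted p = 0.309).

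Sod2 (ENSRNOG00000019048, chromosome 1, 47914759 to 47921587) encodes the manganese enzyme of the mitochondrial matrix. Its libraries read 47.9, 52.6 and 50.1 FPKM in BSA, 54.3, 52.7 and 56.1 in PA, and 50.9, 47.7 and 51.9 in PA + C3G. The lowest PA library was barely above the highest BSA library. Sod2 rose 1.10-fold with PA (log2 fold change 0.14, SE 0.05, adjusted p = 0.0357), the smallest change among the calls. The call was lost without BSA replicate 1, BSA replicate 3, PA replicate 1 or PA replicate 3 (adjusted p = 0.0861 to 0.151) and with limma on log2(FPKM + 1) (adjusted p = 0.0789). With C3G added, the log2 fold change was −0.08 (95% interval −0.19 to 0.03, adjusted p = 0.289), and it passed once all libraries were set to an equal FPKM sum (−0.17, adjusted p = 0.0264).

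Cat (ENSRNOG00000008364, chromosome 3, 93379874 to 93412058) encodes catalase, the peroxisomal enzyme. It was listed at 17.2, 18.8 and 17.4 FPKM in BSA, 29.3, 27.3 and 27.1 in PA, and 24.3, 23.2 and 23.0 in PA + C3G. The 3 groups did not overlap, with PA + C3G between BSA and PA. Cat rose 1.60-fold with PA (log2 fold change 0.67, SE 0.05, adjusted p = 4.24e-06). With C3G added it fell by 0.21 (SE 0.05, adjusted p = 0.0188) but stayed 1.38-fold above BSA (log2 fold change 0.46, SE 0.05, adjusted p = 9.01e-05). The fall with C3G was not called without PA replicate 1 (adjusted p = 0.0612) or PA + C3G replicate 3 (adjusted p = 0.0616).

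Of the glutathione peroxidases, Gpx4 (ENSRNOG00000013604, chromosome 7, 12516352 to 12519154) encodes the selenoenzyme that reduces lipid hydroperoxides within membranes and guards against ferroptosis. Its FPKM was 40.9, 42.0 and 39.6 in BSA, 68.5, 61.1 and 64.6 in PA, and 59.5, 53.3 and 54.9 in PA + C3G. All PA and PA + C3G libraries were above BSA, and all PA + C3G libraries were below PA. Gpx4 rose 1.61-fold with PA (log2 fold change 0.69, SE 0.06, adjusted p = 6.15e-06) and was 1.43-fold above BSA in PA + C3G (log2 fold change 0.51, SE 0.06, adjusted p = 7.75e-05). The difference between PA + C3G and PA (log2 fold change −0.18, 95% interval −0.30 to −0.05) narrowly missed the threshold (adjusted p = 0.0507), and 9 of 19 alternative settings called it. They included DESeq2 (adjusted p = 0.0237) and the fit with the replicate number as a block (adjusted p = 0.0312).

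The Gpx4 gene shares 2303 bp with Sbno2 on the opposite strand. The libraries mark strand, but whether the counting used it is not stated. Sbno2 stood at 6.63 ± 0.226, 9.13 ± 0.475 and 8.70 ± 0.516 FPKM in BSA, PA and PA + C3G, with a log2 fold change of 0.48 for PA versus BSA (adjusted p = 6.46e-05) and −0.03 for PA + C3G versus PA (adjusted p = 0.742). The part of shared reads in the Gpx4 values was not tested. RefSeq also names 7 pseudogenes after Prdx1, 4 after Gpx4 and 1 each after Sod2 and Prdx3, and reads of near-identical copies may be split between them, so the levels of these genes are uncertain to that extent.

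Gpx1 (ENSRNOG00000048812, chromosome 8, 117117430 to 117118522) encodes the widely expressed cytosolic and mitochondrial glutathione peroxidase. It was listed at 0 counts in 7 of the 9 libraries and at 4 counts in PA replicate 1 and PA + C3G replicate 2, where the FPKM was 0.0627 and 0.0670. It did not pass the filter and was not tested. Rhoa, a small GTPase gene that cells generally use, lies 1263 bp away and was likewise listed at only 4 to 13 counts, 0.0363 to 0.160 FPKM. Usp4, a deubiquitinase gene 8170 bp to the other side, had 2583 to 4179 counts. Both neighbors were chosen after their values were seen. The listed values of Gpx1 are therefore given without a statement on its expression.

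Among the peroxiredoxins, Prdx1 (ENSRNOG00000017194, chromosome 5, 135536413 to 135551990) encodes the main cytosolic member. Its FPKM was 256, 250 and 250 in BSA, 164, 149 and 158 in PA, and 212, 175 and 192 in PA + C3G. The 3 groups did not overlap, with PA + C3G between the other two. Prdx1 fell by 0.66 on the log2 scale with PA (SE 0.07, adjusted p = 2.58e-05), a 1.58-fold decrease. It rose 1.26-fold with the addition of C3G (log2 fold change 0.33, SE 0.07, adjusted p = 0.00728) and remained 1.25-fold below BSA (log2 fold change −0.32, SE 0.07, adjusted p = 0.00374). These calls held under all 19 alternative settings.

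Prdx4 (ENSRNOG00000003763, chromosome X, 43497763 to 43512991) encodes the peroxiredoxin of the endoplasmic reticulum, where peroxide arises during oxidative protein folding. Its FPKM was 58.5, 56.3 and 58.7 in BSA, 49.4, 47.5 and 50.5 in PA, and 65.7, 55.1 and 57.4 in PA + C3G. The PA libraries were below all others, and PA + C3G overlapped BSA. Prdx4 fell by 0.21 with PA (SE 0.06, adjusted p = 0.0202), a call lost without BSA replicate 3 (adjusted p = 0.0525) or PA replicate 2 (adjusted p = 0.0613). The gene rose 1.24-fold with C3G (log2 fold change 0.31, SE 0.06, adjusted p = 0.00877), which all 19 alternatives called. Against BSA the log2 fold change in PA + C3G was 0.10 (95% interval −0.04 to 0.24, adjusted p = 0.252).

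Prdx3 (ENSRNOG00000010958, chromosome 1, 282238773 to 282251257) encodes the mitochondrial member. Its FPKM was 24.3, 24.2 and 24.8 in BSA, 20.7, 20.0 and 22.7 in PA, and 21.2, 20.7 and 21.8 in PA + C3G. Every PA and PA + C3G library was below BSA, and the latter groups overlapped each other. Prdx3 fell by 0.18 with PA (SE 0.06, adjusted p = 0.0242), a call lost without BSA replicate 3, PA replicate 1 or PA replicate 2 (adjusted p = 0.0550 to 0.0780) and with all libraries set to an equal FPKM sum (adjusted p = 0.0621). With C3G added, the log2 fold change was 0.04 (95% interval −0.09 to 0.17, adjusted p = 0.663). Between PA + C3G and BSA it was −0.14 (95% interval −0.27 to −0.01, adjusted p = 0.0858).

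Prdx2 and Prdx5 passed the test in no comparison. Prdx2 (ENSRNOG00000003520, chromosome 19, 26084903 to 26090094), a cytosolic member, was listed at 161, 139 and 165 FPKM in BSA, 154, 142 and 144 in PA, and 148, 136 and 133 in PA + C3G. The groups overlapped, and the log2 fold change was −0.05 for PA versus BSA (95% interval −0.21 to 0.10, adjusted p = 0.555) and −0.04 for PA + C3G versus PA (−0.19 to 0.11, adjusted p = 0.729). Between PA + C3G and BSA it was −0.09 (adjusted p = 0.323). Prdx5 (ENSRNOG00000021125, chromosome 1, 222164462 to 222167447), found in mitochondria, peroxisomes and the cytosol, read 103, 99.0 and 103 FPKM in BSA, 110, 94.7 and 112 in PA, and 116, 102 and 104 in PA + C3G. Its groups overlapped as well, with a log2 fold change of 0.08 for PA versus BSA (95% interval −0.08 to 0.23, adjusted p = 0.390) and 0.06 for PA + C3G versus PA (−0.10 to 0.21, adjusted p = 0.605). For PA + C3G versus BSA it was 0.14 (95% interval −0.02 to 0.29, adjusted p = 0.160). The Prdx2 interval for PA versus BSA includes a change of the size called in Prdx3 (−0.18).

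Ratios within a library do not depend on the scaling between libraries. The summed FPKM of the dismutases divided by that of the 8 peroxide removing members was 0.544, 0.564 and 0.560 in BSA, 0.724, 0.765 and 0.757 in PA, and 0.596, 0.595 and 0.632 in PA + C3G. The groups did not overlap, and PA + C3G lay between BSA and PA. The exact 2-sided permutation test gave p = 0.1 for each of the 3 comparisons, the smallest value that 3 against 3 libraries allow. The dismutase sum was 361 ± 6.79 FPKM in BSA, 428 ± 12.2 in PA and 364 ± 25.4 in PA + C3G, and the sum of the peroxide removers was 650 ± 17.5, 573 ± 27.4 and 599 ± 42.8. Gpx1 adds almost nothing to these sums at its listed values. The ratio Sod2/Sod1 was 0.162 ± 0.0107, 0.145 ± 0.00119 and 0.160 ± 0.00712 (exact permutation p = 0.1, 0.1 and 0.9 for PA versus BSA, PA + C3G versus PA and PA + C3G versus BSA). Prdx3/Prdx5 was 0.240 ± 0.00413, 0.201 ± 0.0112 and 0.199 ± 0.0139 (exact permutation p = 0.1, 0.8 and 0.1).

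The make-up of the peroxide removers is given as a description, since these shares and the ratios to Prdx1 were added after the values were seen. The shares count Gpx1 at its listed values, at or near 0, which allow no statement on its expression. They leave out Prdx6, a peroxiredoxin that is not a member (11.3, 14.3 and 12.7 FPKM in BSA, PA and PA + C3G). The shares therefore hold only for the members as listed. Peroxiredoxins held 91.0 ± 0.548% of peroxide remover FPKM in BSA, 83.8 ± 0.339% in PA and 86.7 ± 0.313% in PA + C3G. The share of Prdx1 was 38.8%, 27.5% and 32.2%, and that of Gpx4 was 6.29%, 11.3% and 9.33%. Cat held 2.74%, 4.87% and 3.93%. The Gpx4/Prdx1 ratio was 0.162 ± 0.00543 in BSA, 0.412 ± 0.00527 in PA and 0.290 ± 0.0130 in PA + C3G. The Prdx4/Prdx1 ratio was 0.229 ± 0.00474 in BSA, 0.313 ± 0.0104 in PA and 0.308 ± 0.00794 in PA + C3G. The PA and PA + C3G libraries overlapped in this ratio, and both groups lay above BSA.

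**Figure D3:**
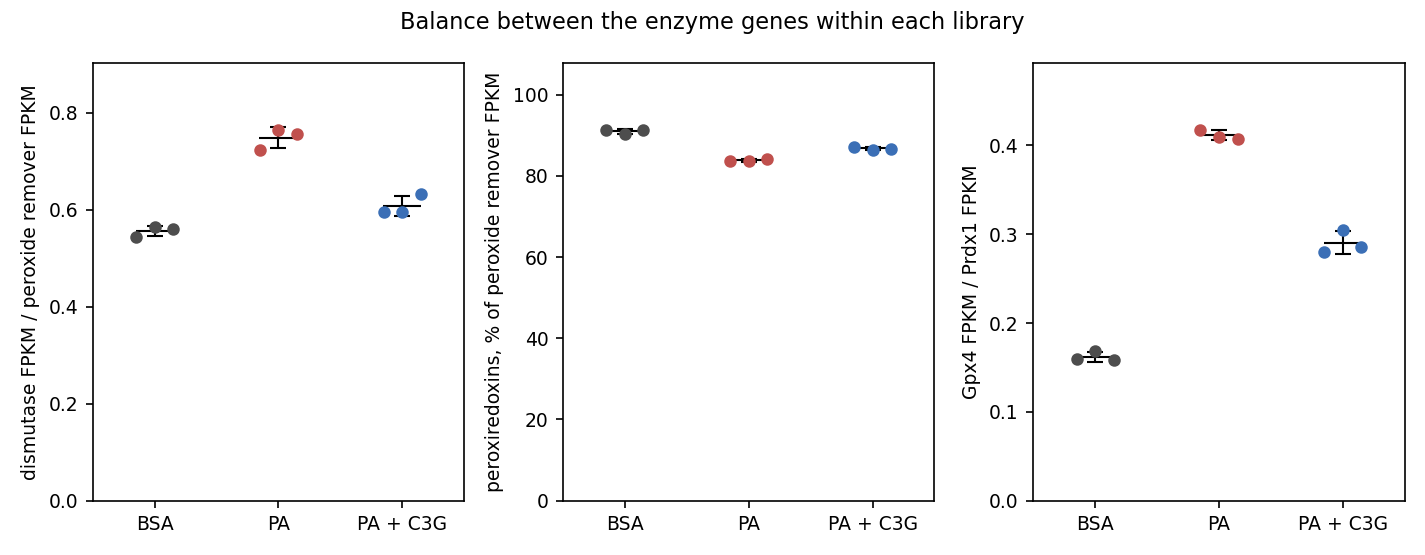
Ratios and shares of FPKM within each library on the y axes, which start at 0, by group on the x axis. Points are the 3 libraries of a group and black bars the mean ± SD. In these 3 panels (dismutases to peroxide removers, peroxiredoxin share, Gpx4/Prdx1) the PA + C3G libraries lie between BSA and PA, which Sod2/Sod1, Prdx3/Prdx5 and Prdx4/Prdx1, not drawn, did not show. The peroxiredoxin share and Gpx4/Prdx1 were chosen after the values were seen. Gpx4 and Prdx1 are the members with the largest rise and fall with PA, so a gap between BSA and PA in their ratio follows from that choice. The dismutase ratio was 0.608 ± 0.0210 in PA + C3G against 0.556 ± 0.0109 in BSA and 0.749 ± 0.0219 in PA.

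Further lists cover the genes that serve these enzymes. Of the 15 genes of glutathione synthesis and use, 14 were tested. Against BSA, 2 were higher and 3 lower in PA, beside 51.0% called over all genes tested. With C3G added, 2 were higher and 2 lower (21.2% over all genes), and between PA + C3G and BSA 2 were higher and 2 lower (36.9%). Glrx, glutaredoxin, which frees protein cysteines bound to glutathione, had 12.0 ± 0.972 FPKM in BSA, 5.86 ± 1.21 in PA and 8.95 ± 1.69 in PA + C3G. It fell by 1.004 on the log2 scale with PA (SE 0.18, adjusted p = 0.00102) and rose by 0.64 with C3G (SE 0.18, adjusted p = 0.0284). Ggct, which cleaves gamma-glutamyl dipeptides formed from glutathione, went from 12.6 ± 1.96 to 20.4 ± 1.91 and back to 12.6 ± 0.684 FPKM, a log2 fold change of 0.73 (SE 0.12, adjusted p = 0.000829) and then −0.66 (SE 0.12, adjusted p = 0.00574). Glrx3, an iron-sulfur glutaredoxin, fell by 0.32 with PA (adjusted p = 0.000616). Chac1, which degrades glutathione, rose by 0.49 with C3G (adjusted p = 0.00918).

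The thioredoxin list had 11 of 12 genes in the table, all tested. PA raised 2 and lowered 4 (51.0% called over all genes), C3G added to PA raised 1 and lowered 1 (21.2%), and PA + C3G against BSA showed 2 higher and 4 lower (36.9%). Txnip, an inhibitor of thioredoxin that responds to glucose, fell from 90.4 ± 21.8 FPKM in BSA to 9.02 ± 0.476 in PA (log2 fold change −3.30, SE 0.17, adjusted p = 2.92e-07). In PA + C3G it stood at 11.5 ± 1.05, a log2 difference of 0.39 from PA that did not pass (adjusted p = 0.111). Among the thioredoxin reductases, Txnrd3 rose by 1.37 with PA (SE 0.12, adjusted p = 1.23e-05) and fell by 0.83 with C3G (SE 0.12, adjusted p = 0.00175), at 3.59, 9.11 and 4.98 FPKM in the 3 groups. Txnrd2, the mitochondrial reductase, rose by 0.48 with PA (adjusted p = 0.000144). Txnrd1, the most abundant reductase of the list at 68.3 FPKM in BSA, was added after its values were seen. It went the other way and fell by 0.21 with PA (SE 0.05, adjusted p = 0.00607). Its log2 fold change was −0.05 with C3G added (adjusted p = 0.580) and −0.26 between PA + C3G and BSA (adjusted p = 0.00320). Sesn2, a stress-induced sestrin, rose by 0.31 with C3G (adjusted p = 0.00999). Txn1, thioredoxin itself, was chosen after its values were seen. It fell by 0.44 with PA (SE 0.10, adjusted p = 0.00452), and its log2 fold change with C3G was 0.22 (adjusted p = 0.162).

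Of 9 further family members and partners, 5 were in the table and 2 were tested. Both were higher in PA and in PA + C3G than in BSA (25.8% and 19.0% over all genes), and with C3G added to PA the log2 fold changes were −0.13 for Prdx6 (adjusted p = 0.268) and 0.03 for Ccs (adjusted p = 0.681). Prdx6, a peroxiredoxin that uses glutathione, rose by 0.37 with PA (SE 0.08, adjusted p = 0.00312). Ccs, the copper chaperone that loads Sod1, rose by 0.23 (SE 0.05, adjusted p = 0.00233).

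NADPH feeds both the glutathione and the thioredoxin route. Of 12 genes of its supply, 11 were tested, and 6 were higher and 2 lower in PA than in BSA, beside 25.8% higher and 25.2% lower over all genes tested. With C3G added to PA, 5 differed and all of these were lower, beside 11.1% higher and 10.2% lower over all genes. Against BSA, PA + C3G had 4 higher and 3 lower, beside 19.0% and 17.9%. Idh2, the mitochondrial NADP-dependent isocitrate dehydrogenase, stood at 78.4 ± 5.64, 121 ± 2.30 and 96.8 ± 3.23 FPKM. Its log2 fold change was 0.65 with PA (SE 0.05, adjusted p = 7.08e-06) and −0.28 with C3G added (SE 0.05, adjusted p = 0.00600). Taldo1, transaldolase, fell by 0.41 with PA (adjusted p = 0.000718). Tkt, transketolase, rose by 0.18 with PA (adjusted p = 0.00100) and fell by 0.28 with C3G (adjusted p = 0.000542).

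**Figure D4:**
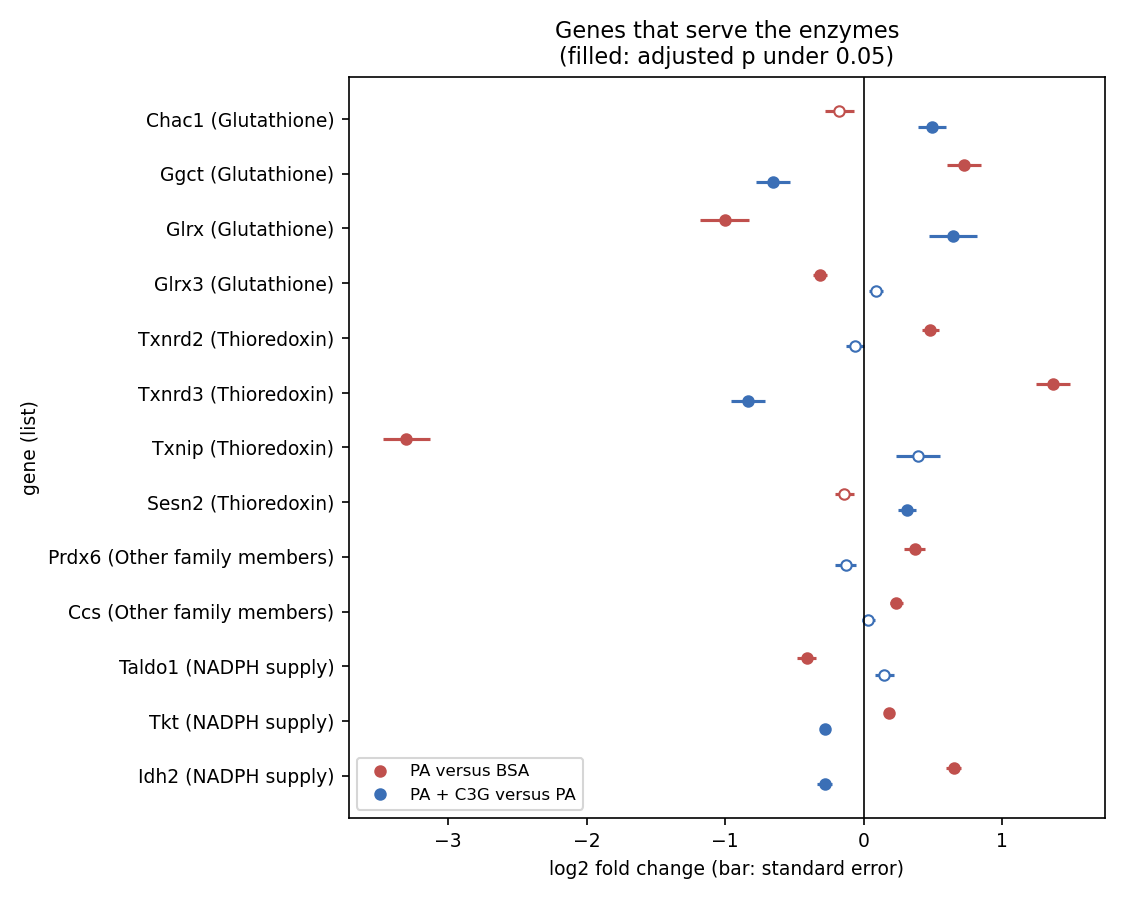
Log2 fold change on the x axis with its standard error for genes of the glutathione, thioredoxin, NADPH and further family lists, for PA versus BSA and PA + C3G versus PA. Filled points passed an adjusted p-value of 0.05. Txnip lies farthest from 0 (−3.30 for PA versus BSA).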

How the data were processed

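RNA-seq was performed by the authors on 9 INS-1E libraries, 3 per group, from polyadenylated RNA prepared with strand marking and sequenced in paired-end mode. The submitters' processing notes name cutadapt 1.9, HISAT2 2.0.4, StringTie 1.3.4d, DESeq2 and edgeR, without roles. The genome build is not given in the sources used here. The authors deposited estimated counts per gene, not normalized, and FPKM, scaled by the authors to transcript length and mapped fragments. Counts, which were whole numbers, were used as deposited.

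The 12958 of 20645 genes that averaged 1 FPKM or more were tested with edgeR 4.0.16 in R 4.3.3 (quasi-likelihood test, TMM, all 9 libraries in 1 fit, Benjamini-Hochberg). Standard errors and 95% intervals come from that fit. The fit was also run on simulated counts. These were drawn with a spread estimated from these data and with far fewer genes changed than PA versus BSA called here. That run therefore does not show how well the calls hold in these data. Alternatives were DESeq2 1.42.0, median-ratio factors, equal FPKM sums per library (TPM scaling), every gene with a count, a stricter filter of 5 FPKM, a fit to the 2 compared groups alone, a replicate block, counts divided by 4, limma 3.58.1 on log2(FPKM + 1) and log2(FPKM + 0.1), and leaving out each library.

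The members and gene lists were chosen with earlier results of these data known. All members are named, and from each list up to 3 genes with the lowest p in PA versus BSA and up to 2 in PA + C3G versus PA. Not every gene so chosen is described, and 1 of them is not reported here. Lists are described by counts, without a set test. The methods of the study state biological triplicates for its experiments in general, and neither they nor the labels say whether the sequenced replicates were separate cultures, so p-values measure the spread between these libraries, which may be technical. On counts divided by 4, no 2 libraries of a group agreed within sampling noise (chi-square per degree of freedom 5.55 to 11.6). The size of that noise rests on the divisor, since the number of independent fragments is not known. Promoter sequences are from RefSeq (GRCr8). The FPKM ratio Gpx1/Gpx4 was planned and is not given, since Gpx1 was listed at or near 0.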

Additional observations from a re-analysis of the deposited data

How the results depend on the processing

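In PA + C3G versus BSA the number of members called was 3 or 4 of 9 under all 19 alternatives. In PA versus BSA it was 6 or 7 with another test, scaling or filter, and 4 to 7 when 1 library was left out, the lowest without BSA replicate 3. In PA + C3G versus PA it was 4 to 6, and 2 to 5 when 1 library was left out, the lowest without PA replicate 1. The cause was not tested. With the replicate block the counts were 7, 5 and 3 for PA versus BSA, PA + C3G versus PA and PA + C3G versus BSA, with Gpx4 the added call. Libraries of the same number deviated little together (Pearson's r across genes, which are not independent replicates, from −0.0918 to 0.0796), so the numbers were not taken to pair the samples, although each PA + C3G library correlated best with the PA library of its own number.

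Signs turned only in differences that did not pass. For PA + C3G versus PA, TPM scaling gave −0.048 for Prdx3 and −0.032 for Prdx5. Prdx5 ran from −0.0098 to 0.10 when 1 library was left out, with −0.0098 without PA replicate 2 and −0.0042 without PA + C3G replicate 1. For PA + C3G versus BSA, limma gave −0.00076 and −0.00078 for Sod2 with pseudocounts of 1 and 0.1. TPM scaling moved the median log2 fold change of all genes to −0.09 in PA + C3G versus PA. In PA + C3G versus BSA, Prdx3 was called by TPM scaling (adjusted p = 0.0275) and both limma fits (adjusted p = 0.0150 and 0.0152), and Prdx2 without BSA replicate 2 (adjusted p = 0.0461).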

Other observations

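Of 8 genes of selenoprotein synthesis, which Gpx1 and Gpx4 need, all were tested. PA raised 3 and lowered 2 (51.0% called over all genes tested), with C3G added to PA 1 differed, Sephs1 (21.2%), and between PA + C3G and BSA 2 differed, both lower in PA + C3G (36.9%). Sephs1, a selenophosphate synthetase paralog, stood at 21.4 ± 0.458, 15.9 ± 0.447 and 17.1 ± 0.371 FPKM in BSA, PA and PA + C3G. It fell by 0.40 with PA (SE 0.04, adjusted p = 1.46e-05) and rose by 0.14 with C3G (SE 0.04, adjusted p = 0.0278). Scly, selenocysteine lyase, rose by 0.70 with PA (SE 0.21, adjusted p = 0.0203), from 1.13 ± 0.280 to 1.81 ± 0.218 FPKM. This is near the filter of 1 FPKM, and the alternative settings gave 0.41 to 0.82. Lrp8, a receptor for selenoprotein P, rose by 0.18 with PA (adjusted p = 0.00735). The log2 fold change of Pstk, which phosphorylates the seryl group on the selenocysteine tRNA, was 0.15 with C3G (adjusted p = 0.101).

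Of 14 genes that make superoxide or peroxide, 13 were in the table and 6 were tested. PA raised 2 and lowered 2 (51.0% called over all genes), C3G added to PA raised 2 and lowered 1 (21.2%), and PA + C3G against BSA had 3 higher and 2 lower (36.9%). Maob, a mitochondrial monoamine oxidase that releases hydrogen peroxide, stood at 75.0 ± 5.79, 24.6 ± 1.99 and 37.6 ± 2.77 FPKM, a log2 fold change of −1.59 with PA (SE 0.08, adjusted p = 3.09e-07) and 0.65 with C3G (SE 0.08, adjusted p = 0.000710). Ero1b, an oxidase of protein folding in the endoplasmic reticulum, fell by 0.68 with PA (SE 0.08, adjusted p = 0.000102) and did not pass with C3G (log2 fold change −0.00, adjusted p = 0.983). Its paralog Ero1a rose by 0.34 with C3G (SE 0.07, adjusted p = 0.00681). Acox3, a peroxisomal acyl-CoA oxidase, rose by 0.59 with PA (SE 0.07, adjusted p = 9.60e-05) and fell by 0.30 with C3G (SE 0.07, adjusted p = 0.0179).

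Of 10 regulators of antioxidant genes, 9 were tested. PA raised 6 and lowered 1, beside 25.8% higher and 25.2% lower over all genes. C3G added to PA raised 1 and lowered 3 (11.1% and 10.2%), and PA + C3G against BSA had 6 higher and 1 lower (19.0% and 17.9%). Bach1, a repressor at antioxidant response elements, stood at 6.12 ± 0.400, 12.8 ± 2.18 and 7.53 ± 0.558 FPKM, a log2 fold change of 1.08 with PA (SE 0.12, adjusted p = 4.69e-05) and −0.72 with C3G (SE 0.12, adjusted p = 0.00295). Ppargc1a, a coactivator of mitochondrial genes, stood at 1.07 ± 0.317, 4.40 ± 0.885 and 2.23 ± 0.143 FPKM, in BSA near the filter of 1 FPKM. It rose by 2.06 with PA (SE 0.22, adjusted p = 4.54e-05) and fell by 0.94 with C3G (SE 0.22, adjusted p = 0.0140). Under the alternative settings its log2 fold change with PA ran from 1.38 to 2.30. Foxo1 fell by 0.56 with PA (SE 0.05, adjusted p = 1.67e-05) and rose by 0.26 with C3G (SE 0.05, adjusted p = 0.00732). Nfe2l2, which encodes NRF2 and was chosen after its values were seen, had a log2 fold change of −0.02 with PA (adjusted p = 0.687) and 0.02 with C3G (adjusted p = 0.758). Keap1, a regulator of NRF2 chosen in the same way, rose by 0.42 with PA (SE 0.05, adjusted p = 9.20e-05). It fell by 0.21 with C3G (adjusted p = 0.0198) and was 0.22 above BSA in PA + C3G (adjusted p = 0.00842). These are mRNA levels, and NRF2 protein and its activity were not measured.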
